A study of Danio rerio with 6 samples.

Results

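Hox genes encode homeodomain transcription factors that lie side by side in clusters, and the 42 Hox genes described here are those for which a probe set on the Affymetrix zebrafish array carried a single symbol starting with hoxa, hoxb, hoxc or hoxd and a number. They were read by 59 of the 15502 probe sets tested, and they made up 42 of the 8793 genes that could be named. RNA came from caudal fins of AB strain larvae amputated at 2 days post fertilization, and each pool held the regenerating tissue of 150 fins, taken 1 day later. Larvae of the 3 tested pools had swum in 1 uM beclomethasone, a synthetic glucocorticoid, for that day. The 3 control pools are matched in age and time. They are vehicle (DMSO) controls by the series' own account, while their own protocol tells of a regeneration time course and names no vehicle, so the exposure and any other difference between these experiments cannot be told apart. Nothing in the labels says that the pools came from separate clutches or days, and p-values measure the spread between these pools only.

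In vertebrates a Hox gene's number, its paralogue group, follows its place in the cluster. Low numbers pattern the hindbrain and neck, middle numbers the trunk, and high numbers the tail and the far ends of fins and limbs, in the neural tube, the somites and the mesenchyme alike. Hox proteins bind DNA together with cofactors of the TALE class, their chromatin is kept silent or active by Polycomb and Trithorax proteins, and their borders are set early by retinoic acid and by Cdx factors. Teleosts duplicated their genome, so that zebrafish carry paired clusters such as hoxba and hoxbb. The measured genes came from 7 clusters, 25 of them from paralogue groups 1 to 8 and 17 from groups 9 to 13. RefSeq names 7 further zebrafish Hox genes, among them hoxa13a, hoxb13a, hoxc10a and hoxd12a, which were not matched to a probe set and are not analysed here.

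The deposited value of a probe set is a linear ratio to a divisor of its own, which for most probe sets is the median of its 6 arrays. Ratios show how pools differ within a gene, and levels of different genes cannot be compared. A gene read by several probe sets is given by their geometric mean ratio. Differences are beclomethasone minus control on the log2 scale with the standard error of the limma fit over all genes, and a gene passed at an adjusted p under 0.05. In a bulk pool, more cells of a type and more RNA per cell cannot be told apart. All 17 epidermal and all 14 fin fold mesenchyme markers measured had at least 1 probe set with a median ratio of 1, read here as the mark of a probe set that was not dim.

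Hox genes were higher in beclomethasone-exposed fins almost throughout. The log2 difference was above 0 for 40 of 42 genes, or 95.2%, against 54.3% of all genes. Among genes whose probe sets all had a median ratio below 1, these shares were nearer, 81.8% of 11 Hox genes against 76.2%. The Hox median was 0.20 against 0.02 over all genes. In the limma fit 6 Hox genes rose and none fell. The 6 make up 14.3% of the Hox genes, where 4.24% of all genes rose and 4.58% fell. At p under 0.05 before adjustment, 15 Hox genes were higher and 0 lower. Of all 8793 genes, 1116 were higher and 1005 lower at that unadjusted p. Every beclomethasone pool lay above every control pool for 19 Hox genes, 45.2% of them, against 16% of all genes. No Hox gene showed the opposite order, which 13.7% of all genes did. Pool medians over the Hox genes were 0.07, 0.0002 and -0.02 in beclomethasone pools 1 to 3, against -0.30, -0.20 and -0.47 in control pools 1 to 3, so the groups did not overlap. The number of Hox genes that rose depended on single pools. It was 0 without beclomethasone pool 1, beclomethasone pool 2 or control pool 3, 1 without beclomethasone pool 3, and 4 without control pool 1 or control pool 2. The median stayed between 0.19 and 0.26 without any 1 pool.

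**Figure D1:**
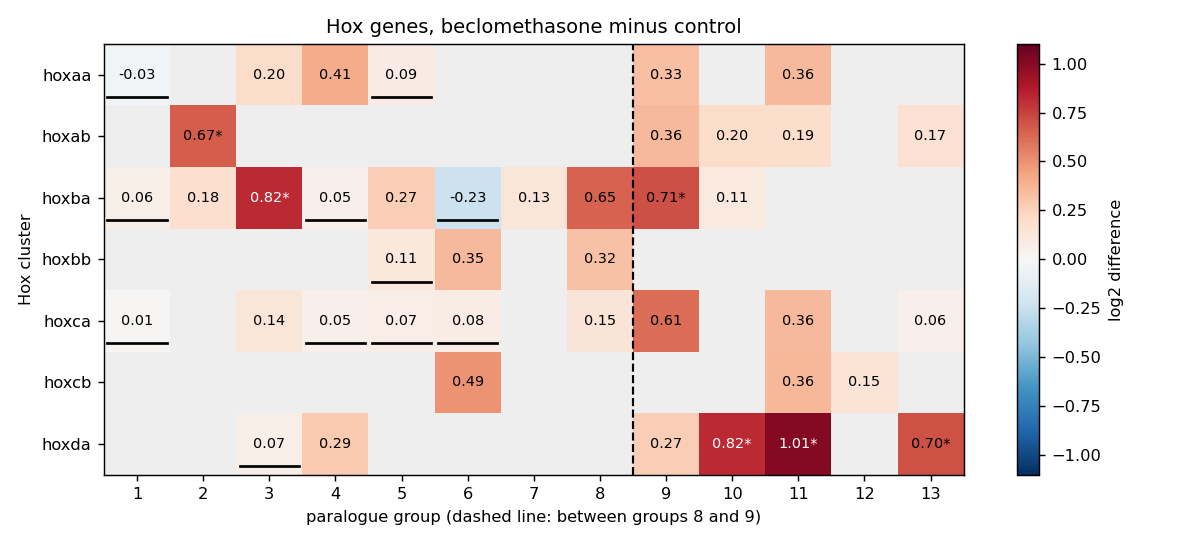
Log2 difference, beclomethasone minus control, of each measured Hox gene, set out by cluster (rows) and paralogue group (columns, 1 to 13). A star marks an adjusted p under 0.05, a bar under a value a gene whose probe sets all had a median ratio below 1, and grey a place with no gene measured here; the 3 stars in the hoxda row are at groups 10, 11 and 13.

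The number of rising genes in each cluster stands against 4.24% of all genes and 14.3% of all Hox genes. In clusters of 3 genes a count of 0 says little. In the hoxda cluster 3 of 6 genes rose, or 50%, and the cluster median was 0.49, or 0.46 to 0.54 without any 1 pool. Of the 10 hoxba genes 2 rose, or 20%, with a median of 0.16. Of the 5 hoxab genes 1 rose, also 20%, with a median of 0.20. No gene passed among the 6 of hoxaa (median 0.27), the 3 of hoxbb (0.32), the 9 of hoxca (0.08) or the 3 of hoxcb (0.36). Without any 1 pool the medians ran from 0.14 to 0.33 for hoxbb (lowest without beclomethasone pool 2), 0.18 to 0.41 for hoxab (highest without control pool 1), 0.22 to 0.31 for hoxaa, 0.12 to 0.19 for hoxba, 0.07 to 0.12 for hoxca and 0.24 to 0.45 for hoxcb. Leaving out dim probe sets also left out genes. The medians were then 0.35 for hoxca (5 genes left), 0.70 for hoxda (5), 0.44 for hoxbb (2) and 0.33 for hoxaa (4). They were 0.35 for hoxab (5), 0.27 for hoxba (7) and 0.36 for hoxcb (3). No test compared the clusters with one another.

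The posterior genes of the hoxda cluster, which in vertebrates act in the outgrowing fin or limb bud and in the tail, held the largest difference of the family. Hoxd11a had ratios of 1.86, 1.40 and 1.12 in beclomethasone pools, against 0.648, 0.878 and 0.630 in control pools. The groups did not overlap, beclomethasone pool 3 was the lowest of its group, and control pool 2 the highest of its own. Its log2 mean was 0.52 ± 0.37 in exposed and -0.49 ± 0.26 in control fins (SD, n = 3 each), a difference of 1.01 ± 0.21 (SE; 2.01-fold; limma adjusted p = 0.0292). Hoxd11a is read by a single probe set whose name carries an A, and the labels do not say which strand such a probe set reads.

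Hoxd10a, its neighbour, showed the same order of pools. The ratios were 1.47, 1.27 and 1.06 in beclomethasone pools, against 0.634, 0.942 and 0.598 in control pools, and the difference was 0.82 ± 0.20 (1.77-fold; limma adjusted p = 0.0489). Hoxd13a, the member of the cluster that acts most distally in fins, had 1.096, 1.47 and 1.14 in beclomethasone pools, against 0.904, 0.669 and 0.709 in control pools. Here pool 2 was the highest of the exposed group and the lowest of the controls, and the gene rose by 0.70 ± 0.16 (1.62-fold; limma adjusted p = 0.0421). Hoxd9a lay lower in the same cluster with 1.33, 0.971 and 1.03 in beclomethasone pools, against 0.730, 1.14 and 0.913 in control pools. Its groups overlapped and it did not pass (0.27 ± 0.19, adjusted p = 0.461), with a 95% interval of the difference from -0.18 to 0.72.

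**Figure D2:**
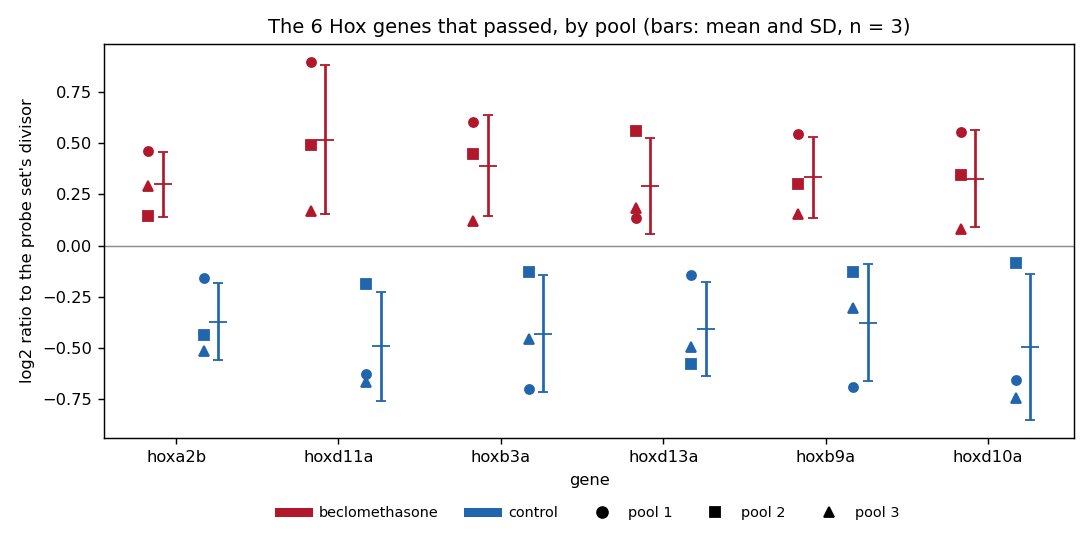
Log2 ratio in each pool (y axis) for the 6 Hox genes that passed, beclomethasone in red and control in blue, with symbols for pools 1, 2 and 3 and bars for mean and SD (n = 3 pools). No control pool reaches a beclomethasone pool in any of the 6 genes; hoxd11a in beclomethasone pool 1 (ratio 1.86) is the highest point.

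Among the other genes of group 9, hoxb9a rose. Hoxb9a, a trunk and tail gene of the hoxba cluster, had ratios of 1.46, 1.23 and 1.11 in beclomethasone pools, against 0.620, 0.914 and 0.808 in control pools, a difference of 0.71 ± 0.17 (1.63-fold; limma adjusted p = 0.0460). Both of its probe sets were higher, at 0.64 and 0.78. Hoxc9a also had all beclomethasone pools above the control pools, with 1.101, 1.18 and 1.06 against 0.944, 0.865 and 0.469 in control pools. Control pool 3 was far below the other 2, and the difference of 0.61 ± 0.25 did not pass (adjusted p = 0.191). Without control pool 3 it was 0.30. Hoxa9a had 1.18, 0.911 and 0.889 in beclomethasone pools, against 0.742, 0.797 and 0.808 in control pools, without overlap (0.33 ± 0.13, adjusted p = 0.172). Its cluster duplicate hoxa9b had 1.204, 1.22 and 0.961 in beclomethasone pools, against 0.942, 1.04 and 0.684 in control pools, and these ranges overlapped (0.36 ± 0.18, adjusted p = 0.284). The 5 genes of group 9 thus ranged from 0.27 to 0.71.

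Group 10 outside the hoxda cluster held smaller differences. Hoxa10b, which like its group 10 relatives is a gene of the posterior trunk and of fin and limb buds, had 0.826, 0.796 and 0.866 in beclomethasone pools, against 0.774, 0.754 and 0.646 in control pools (0.20 ± 0.11, adjusted p = 0.317). Hoxb10a had 0.954, 0.984 and 0.898 in beclomethasone pools, against 0.920, 0.845 and 0.865 in control pools (0.11 ± 0.09, adjusted p = 0.552). Only hoxa10b kept the groups apart, and neither passed. Both means include a dim A-marked probe set. The probe sets of hoxa10b gave 0.05 (dim) and 0.35, and those of hoxb10a -0.05 (dim), 0.09 and 0.28.

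Group 11 genes are known in mice for the middle segment of the limb and for the kidney. After hoxd11a, the 4 other members lay between 0.19 and 0.36. Hoxa11a had 1.22, 1.29 and 1.06 in beclomethasone pools, against 0.918, 0.927 and 0.936 in control pools, and the controls differed little among themselves (0.36 ± 0.10, adjusted p = 0.0789). Hoxa11b, its duplicate, had 0.988, 1.40 and 1.05 in beclomethasone pools, against 1.01, 0.974 and 0.988 in control pools, so only pool 2 stood out (0.19 ± 0.14, adjusted p = 0.488). Hoxc11a had 1.04, 0.969 and 0.907 in beclomethasone pools, against 0.792, 0.772 and 0.712 in control pools (0.36 ± 0.10, adjusted p = 0.0701). Hoxc11b had 1.34, 1.09 and 1.01 in beclomethasone pools, against 0.841, 0.995 and 0.830 in control pools (0.36 ± 0.14, adjusted p = 0.163). The groups were apart for hoxa11a, hoxc11a and hoxc11b, and these differences, each close to 1.28-fold, missed the threshold.

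In groups 12 and 13, the terminal genes of the clusters, only hoxd13a passed. Hoxc12b had 1.01, 1.04 and 0.991 in beclomethasone pools, against 0.830, 1.17 and 0.785 in control pools (0.15 ± 0.16, adjusted p = 0.655). Hoxc13a had 1.06, 1.00 and 0.998 in beclomethasone pools, against 1.11, 0.968 and 0.876 in control pools (0.06 ± 0.11, adjusted p = 0.818). Its 95% interval, from -0.21 to 0.32, holds 0 and leaves room for modest differences either way, and its only probe set carries an A as well. Hoxa13b, with hoxd13a a gene of the distal fin, had 0.966, 1.34 and 1.03 in beclomethasone pools, against 1.502, 0.956 and 0.659 in control pools. The control pools spread over more than the whole exposed range, and the difference was 0.17 ± 0.29 (adjusted p = 0.795; 95% interval from -0.51 to 0.85). Without control pool 3 it was -0.12.

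Over groups 9 to 13 together, all 17 differences were above 0, 4 genes rose and 10 had all beclomethasone pools above the control pools. These are 100% above 0, 23.5% rising and 58.8% without overlap, against 54.3%, 4.24% and 16% of all genes. Their median difference was 0.36. Pool medians were 0.14, 0.24 and 0.04 in beclomethasone pools 1 to 3, against -0.25, -0.11 and -0.35 in control pools 1 to 3.

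**Figure D3:**
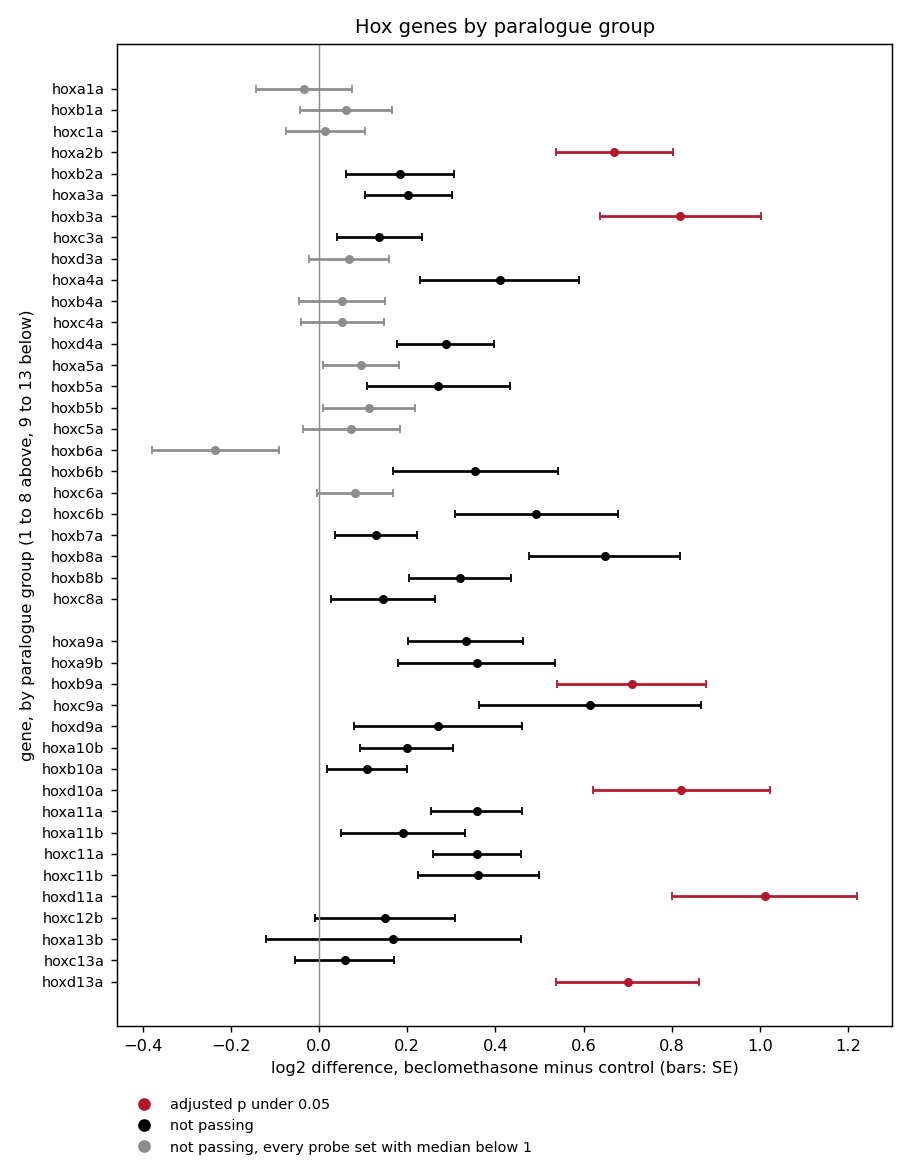
Log2 difference with SE (x axis) for all 42 Hox genes, ordered down the page by paralogue group, 1 to 8 above and 9 to 13 below. Red points passed, black points did not, and grey points did not and belong to genes whose probe sets all had a median ratio below 1; the 11 grey genes lie in groups 1 to 8 and within 0.24 of 0.

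In groups 1 to 8, 2 of 25 genes rose, or 8%, against 4.24% of all genes, and the median difference was 0.14. Hoxa2b, a selector gene of the second pharyngeal arch, also active in the hindbrain, had ratios of 1.38, 1.11 and 1.22 in beclomethasone pools, against 0.894, 0.738 and 0.699 in control pools. It rose by 0.67 ± 0.13 (1.59-fold; limma adjusted p = 0.0253), the lowest adjusted p of the family. Hoxb3a, of the hindbrain and pharyngeal region, had 1.52, 1.36 and 1.09 in beclomethasone pools, against 0.614, 0.914 and 0.728 in control pools. It rose by 0.82 ± 0.18 (1.76-fold; limma adjusted p = 0.0366), and its order of pools was that of hoxd10a except that control pools 1 and 3 changed places. Every one of the 6 passing genes lost its call without beclomethasone pool 1, beclomethasone pool 2 or control pool 3. Hoxd11a kept it without any 1 of the other 3 pools, hoxb3a without control pool 1 or 2, hoxa2b and hoxd13a without control pool 1, and hoxb9a and hoxd10a without control pool 2. Hoxd10a also lost its call after quantile normalization, after centring and with log2 of the ratio plus 1. With S-marked probe sets alone, used where a gene had them, hoxd10a lost its call too. Hoxd13a lost it after quantile normalization, hoxb3a and hoxb9a after centring, and hoxb9a and hoxd13a with log2 of the ratio plus 1. Without any 1 pool their differences kept their sign, from 0.55 for hoxb9a to 1.19 for hoxd11a.

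Of the other genes of groups 1 to 8, hoxb8a came nearest to passing. Hoxb8a, a trunk gene, had 1.28, 0.868 and 0.864 in beclomethasone pools, against 0.565, 0.674 and 0.655 in control pools, without overlap (0.65 ± 0.17, adjusted p = 0.0615). Its duplicate hoxb8b had 0.937, 0.720 and 0.814 in beclomethasone pools, against 0.646, 0.659 and 0.664 in control pools (0.32 ± 0.12, adjusted p = 0.146). Hoxc6b had 1.46, 1.23 and 0.979 in beclomethasone pools, against 0.868, 1.02 and 0.717 in control pools, with control pool 2 above beclomethasone pool 3 (0.49 ± 0.19, adjusted p = 0.157). Hoxd4a, a gene of the hindbrain and anterior trunk, had 1.202, 0.981 and 1.09 in beclomethasone pools, against 0.836, 0.896 and 0.948 in control pools (0.29 ± 0.11, adjusted p = 0.166).

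The remaining 19 genes of groups 1 to 8 did not pass. Those with a probe set at a median of 1 were hoxa4a (0.41), hoxb6b (0.35), hoxb5a (0.27), hoxa3a (0.20), hoxb2a (0.18), hoxc8a (0.15), hoxc3a (0.14) and hoxb7a (0.13). Every probe set of the other 11 had a median ratio below 1: hoxa1a (-0.03), hoxb1a (0.06), hoxc1a (0.01), hoxd3a (0.07), hoxb4a (0.05), hoxc4a (0.05), hoxa5a (0.09), hoxb5b (0.11), hoxc5a (0.07), hoxb6a (-0.23) and hoxc6a (0.08). Hoxb1a, which gives a hindbrain segment its identity, is an example, with 0.584, 0.634 and 0.710 in beclomethasone pools, against 0.612, 0.596 and 0.635 in control pools. Pool ratios of these 11 genes ran from 0.377 to 1.07.

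A median below 1 is read here as the mark of a dim probe set, and such genes were found only in groups 1 to 8. All 3 genes of group 1, 3 of 4 in group 5 and 2 of 4 in groups 4 and 6 had only such probe sets, in all 11 of 25 genes of groups 1 to 8, against 0 of 17 in groups 9 to 13 and 13.9% of all genes. The cut was narrow, so the probe set of hoxc6a (median 0.998) and the S-marked one of hoxd3a (0.987) counted as dim. That of hoxa1a, with a median of 0.420, lay far lower. Both Hox genes with a difference below 0, hoxa1a and hoxb6a, were among the 11. The 9 others make 81.8% above 0, near the 76.2% of all genes with only such probe sets. Of the 31 genes with a probe set at a median of 1, all had a mean difference above 0, although hoxb2a and hoxc8a each held such a probe set below 0 (-0.06 and -0.08). The median of the 31 genes was 0.33, and 50.7% of all genes with a probe set at a median of 1 lay above 0. In groups 1 to 8 the 14 such genes had a median of 0.30, against 0.36 for the 17 genes of groups 9 to 13. With the dim probe sets left out of the means as well, the medians were 0.38 for groups 1 to 8 and 0.36 for groups 9 to 13. Genes with only dim probe sets all lay in groups 1 to 8, so dimness and paralogue group cannot be told apart. What part dim probe sets had in the lower median of groups 1 to 8 was not tested.

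Where a gene had several probe sets, they did not always move alike. At the level of probe sets, 7 of 59 passed, or 11.9%, all higher, and 53 of 59 lay above 0. Of all probe sets, 2.88% were called higher. Hoxd10a and hoxd13a, each read by 1 probe set, did not pass in this limma fit (adjusted p = 0.0606 and 0.0528). Of the 2 probe sets of hoxb9a only 1 passed (limma adjusted p = 0.0406, against 0.139 for the other). For 8 genes, hoxa10b, hoxb7a, hoxb8a, hoxb8b, hoxb10a, hoxc8a, hoxc11a and hoxd3a, the array held a pair of probe sets built from the same sequence record, one marked A and one marked S in its name. The A-marked one had a median below 1 in all 8 pairs, from 0.414 to 0.767, and the S-marked one in 1. The difference was lower for the A-marked one in all 8 pairs, from -0.27 to 0.20, against -0.08 to 0.74 for the S-marked one. For hoxb8a the probe sets gave 0.20 (A-marked), 0.74 and 1.01 (S-marked), and the gene rose by 0.87 (adjusted p = 0.0308) when the dim A-marked one was left out. Hoxc11a had 1 A-marked probe set with a median of 1 that passed (0.69 ± 0.15, adjusted p = 0.0450) beside 0.13 (A-marked) and 0.26 (S-marked). Hoxc8a likewise had 1 A-marked probe set that passed (0.78 ± 0.14, adjusted p = 0.0249) beside -0.27 (A-marked) and -0.08 (S-marked). In all, 3 of 16 A-marked and 4 of 43 S-marked probe sets passed. Overlap with other transcripts was not examined, and the means of hoxc8a and hoxc11a join probe sets that disagree. Probe sets were also apart for hoxb2a (0.43 and -0.06), hoxb8b (0.53 and 0.11) and hoxd4a (0.49 and 0.08).

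Genes that act with or upstream of Hox genes were read against the same 4.24% of all genes that rose and 4.58% that fell. Counts at p under 0.05 before adjustment in limma stand against 1116 higher and 1005 lower of all 8793 genes. Of 12 TALE cofactor genes measured none passed, with 2 higher and 0 lower in limma at p under 0.05 before adjustment, and their median was 0.09. Meis3 (0.59 ± 0.23, adjusted p = 0.162), meis2a (0.91 ± 0.37, adjusted p = 0.187) and pbx3b (0.39 ± 0.17, adjusted p = 0.229) had the smallest p. Meis2a had 2.19, 1.45 and 0.974 in beclomethasone pools, against 0.481, 0.950 and 1.03 in control pools, and overlapped. The list of 11 posterior patterning genes also held ventral homeobox genes, and 2 were higher and 2 lower at p under 0.05 before adjustment. In this list 2 fell, both ventral homeobox genes, vox (-1.02 ± 0.15, adjusted p = 0.00930) and ved (-0.80 ± 0.19, adjusted p = 0.0451). The other 9 differences were above 0. The caudal-type gene cdx4, which in zebrafish embryos activates posterior Hox genes, had 2.77, 1.14 and 1.54 in beclomethasone pools, against 0.691, 0.857 and 0.627 in control pools. Its groups did not overlap, and its difference of 1.24 ± 0.31 just missed the threshold (adjusted p = 0.0501).

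None of the 14 retinoic acid genes passed in limma, with 0 higher and 2 lower at p under 0.05 before adjustment and a median of -0.09. The synthesis gene aldh1a2 came closest, with 0.808, 0.857 and 0.940 in beclomethasone pools, against 1.44, 1.33 and 1.06 in control pools (adjusted p = 0.0518). Crabp2b, which encodes a retinoic acid binding protein, was at -0.24 (adjusted p = 0.158), and the breakdown enzyme gene cyp26b1 at -0.29 (adjusted p = 0.495). Of 23 Polycomb and Trithorax genes 2 fell, yy1b (-0.52 ± 0.09, adjusted p = 0.0172) and ash2l (-0.58 ± 0.10, adjusted p = 0.0190), the first for a DNA-binding partner of Polycomb and the second for a core subunit of Trithorax-type histone methyltransferases. At p under 0.05 before adjustment 1 of the 23 was higher and 9 were lower, where 1116 of all 8793 genes were higher and 1005 lower. All beclomethasone pools lay below the control pools for 7 of the 23, against 13.7% of all genes. The Polycomb and Trithorax median was -0.09, and yy1a (-0.38, adjusted p = 0.0676), rbbp5 (-0.47, adjusted p = 0.0898) and rbbp4 (-0.38, adjusted p = 0.104) followed without passing. Of 22 other positional factors of fins, 1 rose and 1 fell, with 3 higher and 2 lower at p under 0.05 before adjustment and a median of -0.05. Shha, which encodes the signal Sonic hedgehog and is also a notochord marker, rose by 0.77 ± 0.14 (adjusted p = 0.0208). Sp8b, a transcription factor gene of the outer epithelium of fin buds, was lower (-0.62 ± 0.11, adjusted p = 0.0168). Tbx3a (0.36, adjusted p = 0.124), prrx1b (-0.46, adjusted p = 0.136) and en1a (0.25, adjusted p = 0.184) did not pass.

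Markers of other tissues were read beside the Hox genes, again against the 4.24% of all genes that rose and the 4.58% that fell. Of 21 markers of spinal cord and neurons 7 rose, led by the glial gene gfap (1.25 ± 0.18, adjusted p = 0.00837) and the neuronal gene stmn2a (1.53 ± 0.23, adjusted p = 0.0102), none fell, all 21 differences were above 0 and the median was 0.67. Neural pool medians were 0.74, 0.12 and 0.16 in beclomethasone pools 1 to 3, against -0.42, -0.28 and -0.53 in control pools 1 to 3. The 15 skeletal muscle markers also all lay above 0, with a median of 1.36, though only myod1 passed, or 6.67% of them. Muscle pool medians were 0.75, 0.09 and 0.06 in beclomethasone pools, against -1.86, -0.03 and -1.44 in control pools. Beclomethasone pool 1 and control pool 2 thus had the highest muscle and neural medians of their groups, and they were also the highest of their groups in hoxd11a, hoxd10a, hoxb3a and hoxb9a, but not both so in hoxa2b or hoxd13a. The exposed and control pools closest in muscle median were beclomethasone pool 3 and control pool 2, 0.09 apart. In beclomethasone pool 3, 36 of 42 Hox genes were higher than in control pool 2, with passing genes from 0.17 (hoxd10a) to 0.76 (hoxd13a). Between the same pools the Hox median was higher by 0.17 and the neural median by 0.44. The values carry no level, so how much of either tissue a pool held cannot be read from them. Lists of notochord, fin fold mesenchyme and yolk and liver genes also had higher medians in every beclomethasone pool than in any control pool. The part of these tissues, or of neural and muscle tissue, in the Hox differences was not tested.

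The other lists stand against the same shares of all genes, 4.24% rising and 4.58% falling. Fin fold mesenchyme had a median of 0.24 with 3 of 14 genes rising (21.4%), and notochord 0.34 with 1 of 9 (11.1%). Presomitic and somitic mesoderm had a median of 0.07 with 0 of 11 rising, but 6 of the 11 had only dim probe sets, against 13.9% of all genes. The same held for 5 of the 14 retinoic acid genes and 4 of the 11 posterior patterning genes. Epidermal markers had a median of -0.30 with 6 of 17 falling and 1 rising, and cell cycle genes one of -0.87 with 17 of 22 falling. Leukocyte markers had a median of -0.34 with 2 of 10 rising. Yolk and liver markers had pool medians of 1.26, 2.32 and 0.05 in beclomethasone pools 1 to 3, against -0.42, -0.35 and -0.11 in control pools 1 to 3. Beclomethasone pool 2, the highest of all in yolk and liver genes, had the highest ratio of hoxd13a, and beclomethasone pool 1 that of the other 5 Hox genes that rose. Among Hox genes that did not pass the highest pool varied. It was beclomethasone pool 3 for hoxa10b and hoxb5b, and control pool 1 for hoxa13b. Any link between yolk and liver genes and Hox genes was not tested.

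**Figure D4:**
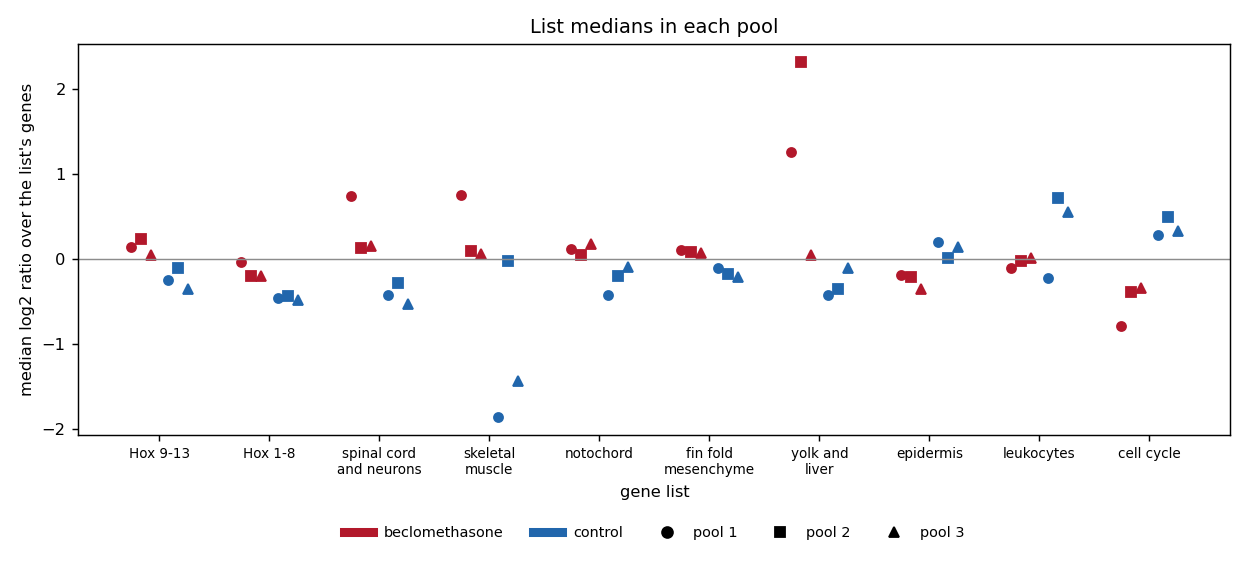
Median log2 ratio over the genes of each list (y axis) in each beclomethasone pool (red) and control pool (blue), symbols marking pools 1, 2 and 3. Both Hox groups lie higher in every beclomethasone pool than in any control pool. So do the neural, muscle, notochord, fin fold mesenchyme and yolk and liver lists. Cell cycle and epidermal lists lie lower, leukocyte lists overlap, and beclomethasone pools 1 and 2 stand apart in yolk and liver genes.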

How the data were processed

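The deposited values are linear ratios per probe set. The submitters' processing notes name GCRMA as the authors' tool. How each probe set was then divided was inferred from the ratios themselves, since the median of 6 arrays was 1 (within 1e-06) for 12557 of the 15502 probe sets tested and below 1 for 2944. The 115 control probe sets were left out. Signal over background and depth are unknown, and the number of arrays limits the precision.

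Log2 ratios, with no pseudocount and no filter, were averaged over a gene's probe sets. A two-sided limma fit (version 3.58.1, R 4.3.3, eBayes after lmFit) set the 3 beclomethasone pools against the 3 control pools over 8793 genes, with Benjamini-Hochberg adjustment over all genes, and over all probe sets separately. The fit was tested on simulated data. An exact permutation test of 3 against 3 pools could not go below p = 0.1 and was not used. Array symbols came from the platform's annotation, updated through Entrez numbers (1 symbol changed).

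The members and lists were chosen with earlier results of these data known. Full pool values are given for passing Hox genes, for groups 9 to 13 and for the 6 genes of groups 1 to 8 with the smallest p; list genes are named where they pass, with up to 3 others of smallest p. Same-numbered pools did not deviate together (r across genes -0.22, -0.08 and 0.08 for numbers 1, 2 and 3), so pools were not paired. No sequences were printed, as none came with the data.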

Additional observations from a re-analysis of the deposited data

How the results depend on the processing

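No Hox gene fell under any alternative, and all 6 genes that rose kept their sign. Against 6 rising Hox genes, centring arrays on their medians or log2 of the ratio plus 1 gave 3, the replicate block 1 (hoxa2b), leaving out beclomethasone pools 1 and 2 together 0 (1 pool against 3, the lone pool assumed to vary like the controls), and leaving out 1 pool 0 to 4. For groups 1 to 8 (2 rose) the counts were 1 centred, 1 with the block, 4 counted by probe set, 0 without both pools and 0 to 2 without 1 pool. For groups 9 to 13 (4 rose) they were 2 after quantile normalization, 2 centred, 0 with the block, 1 with log2 of the ratio plus 1, 0 without both pools and 0 to 3 without 1 pool. Of all probe sets, 948 passed, against 2177 with array weights, 436 with the block, 4 without both pools and 367 to 1233 without 1 pool. Leaving out pools also leaves fewer samples; for the other settings the cause was not tested.

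The Hox median of 0.20 was 0.36 without dim probe sets (31 genes left) and 0.32 with the probe set of largest range per gene. It was 0.10 with log2 of the ratio plus 1, 0.18 without both pools and 0.19 to 0.26 without 1 pool. For groups 1 to 8 it was 0.38 without dim probe sets (14 genes left) and 0.089 after quantile normalization. For these groups it was 0.070 with log2 of the ratio plus 1 and 0.11 to 0.18 without 1 pool. For groups 9 to 13 it was 0.17 with log2 of the ratio plus 1, 0.19 without both pools and 0.29 to 0.41 without 1 pool. Adding 1 to each ratio shrinks log2 differences by construction, so medians with log2 of the ratio plus 1 are on another scale. The probe set of largest range was picked by its interquartile range over the arrays of both groups together. That choice by construction favours probe sets whose groups differ more.

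Genes that changed sign had not passed. Quantile normalization gave -0.0048 for hoxa5a, -0.046 for hoxb1a, -0.056 for hoxb4a, -0.092 for hoxc1a, -0.047 for hoxc4a and -0.035 for hoxc5a. S-marked probe sets alone gave -0.064 for hoxb2a and -0.078 for hoxc8a, and hoxa1a was 0.055 without both pools. Without 1 pool, values ran from -0.088 to 0.048 for hoxa1a, -0.013 to 0.13 for hoxb1a, -0.0069 to 0.11 for hoxb4a, -0.012 to 0.051 for hoxc1a, -0.0056 to 0.14 for hoxc5a, -0.12 to 0.48 for hoxa13b and -0.023 to 0.15 for hoxc13a. The S-marked setting and the joint removal of pools 1 and 2 were chosen after seeing the data. The S-marked setting left out A-marked probe sets only for genes that also had an S-marked one. Hoxd11a thus kept its single A-marked probe set and was not checked by it. Ratios carry no signal over background, so how near background a gene lay is unknown.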
